A study of Mus musculus with 2 samples.

Results

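The mitochondrial carrier family was examined in heart RNA of 2 adult mice. Genes were taken by symbol: Slc25a followed by a number only, with at least 1 transcript annotated as protein_coding, plus Ucp1, Ucp2 and Ucp3. The rule found 50 genes, 47 named Slc25a and 3 named Ucp, among 55450 mouse genes listed in both kinds of table, and it used no measured value. The series holds 1 group: hearts of female B6CASTF1/J hybrids, the first-generation cross of C57BL/6J with CAST/EiJ, 8 to 10 months old and given no treatment that the labels name. Replicate 1 is the animal numbered 1 and replicate 2 the animal numbered 3, with 1 library of total RNA each. Both libraries carry the same donor label, while their descriptions number the animals separately; they are taken here as 2 animals, and if they were not, every spread given would be technical. There is no second condition, so the values describe this tissue and the spread between 2 animals.

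Mitochondrial carriers sit in the inner membrane, which is otherwise closed to charged metabolites. Each is built from repeats of a similar unit and swaps one substrate for another, or moves a substrate together with protons. In a beating heart the family exports ATP, takes in ADP and phosphate, and brings in fatty acids and the reducing power of the cytosol.

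The libraries held 42223411 expected counts in replicate 1 and 40553237 in replicate 2. Gene levels come from the authors' table made from alignments to the transcriptome. Transcript levels come from 2 tables, one made from the same alignments and one derived directly from the FASTQ reads, here called by alignment and by FASTQ. Of the markers of the labelled tissue, 7 of 7 cardiomyocyte genes passed 1 TPM (a transcript level corrected for length and library size), and their median was 4205 TPM in the first animal and 3855 TPM in the second. Liver markers passed 1 TPM in 0 of 5 cases and testis markers in 0 of 5. Brain markers passed it in 1 of 5, Slc17a7 at 14.3 and 9.34 TPM, and fast skeletal muscle markers in 4 of 7. Those 4 were Ckm at 1445 and 1303 TPM, Acta1 at 129 and 98.6, Tnnt3 at 3.60 and 3.73, and Myh4 at 2.76 and 3.41. Macrophage markers did so in 7 of 8 cases and red cell markers in 5 of 6, and in such bulk RNA fewer cells of a type and less RNA per cell cannot be told apart.

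The family shares a short motif, which appears once in each repeat of the protein: proline, any residue, an acidic residue, any pair of residues, then a basic residue. When annotated coding sequences were translated, 30 of 50 members held it 3 or more times, 12 held it 2 times and 8 fewer. Among the other nuclear protein-coding genes translated, 2.31% of 21488 held 3 or more matches, and 0.140% of the 4289 whose proteins were 250 to 350 residues long. The members were 265 to 677 residues long, with a median of 318. Slc25a46, which sits in the outer membrane, Slc25a51 and Slc25a53 held no match.

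ADP/ATP carriers carry a signature of their own, 3 arginines followed by 3 methionines. It was found in 3 members, Slc25a4, Slc25a5 and Slc25a31, and in 3 of all translated proteins. The coding stretches around it are shown because these genes encode the same transport step at very different levels. Capitals mark the 6 signature codons (mm10; each stretch crosses 1 intron, so its ends span more bases than it has).
Slc25a4, chr8:46207619-46208455, minus strand: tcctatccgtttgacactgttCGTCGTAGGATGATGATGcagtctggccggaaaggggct
Slc25a5, chrX:36797819-36798388, plus strand: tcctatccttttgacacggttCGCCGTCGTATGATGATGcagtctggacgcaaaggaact
Slc25a31, chr3:40722710-40724885, plus strand: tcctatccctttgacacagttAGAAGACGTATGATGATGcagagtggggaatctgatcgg
Over these 60 bases Slc25a4 and Slc25a5 differed at 9 positions and Slc25a4 and Slc25a31 at 22. The whole proteins were 89.6% identical for Slc25a4 and Slc25a5 and 67.1% identical for Slc25a4 and Slc25a31.

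Of the 50 genes, 38 (76%) were at 1 TPM or more in both hearts, against 48.8% of all protein-coding genes. Their levels ran from Slc25a24, at 1.45 and 1.22 TPM in replicates 1 and 2, to Slc25a4, at 1744 and 1591 TPM. By mean, 4 of the 38 averaged 100 TPM or more, 14 averaged 10 to 100 and 20 averaged 1 to 10. The median member stood at 4.99 TPM in replicate 1 and 4.79 TPM in replicate 2, and the median nuclear protein-coding gene at 1.02 and 0.93 TPM. Among expressed genes alone the medians lay closer, at 9.48 ± 1.17 TPM for the members and 7.94 ± 0.74 TPM for nuclear protein-coding genes (SD, n = 2 animals here and throughout). The family summed to 3786 TPM in replicate 1 and to 3388 in replicate 2. That is 0.379% and 0.339% of all TPM, or 1.00% and 1.02% of the TPM of nuclear protein-coding genes.

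**Figure D1:**
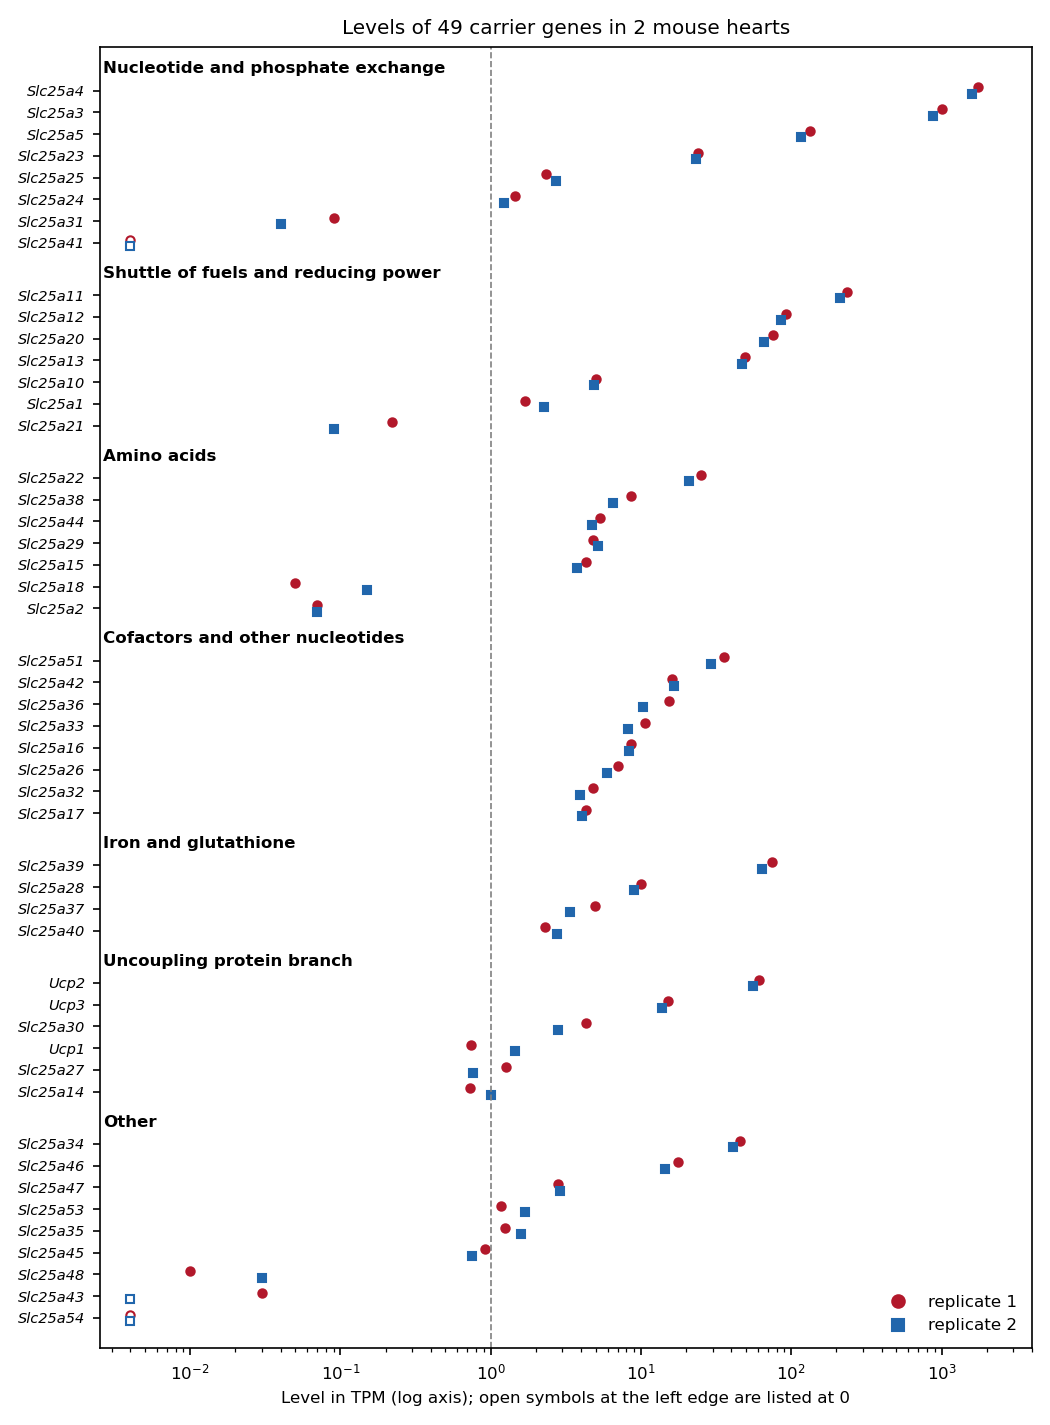
Level of each of 49 carrier genes in TPM on a log axis, grouped by transported substrate, with circles for replicate 1 and squares for replicate 2; the dashed line is 1 TPM. Slc25a4 and Slc25a3 stand above all other members in both animals, while Slc25a41 and Slc25a54 are listed at 0 in both.

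Carriers that feed ATP synthase and carry away its product dominated the family. The 8 genes for adenine nucleotide and phosphate exchange made up 77.2% ± 0.10 of the family's TPM. Slc25a4 (the heart and muscle ADP/ATP carrier, chr8:46206797-46211284, minus strand) reached 1744 TPM in replicate 1 and 1591 in replicate 2, which ranked it 17th by mean among nuclear protein-coding genes. Slc25a3 (the phosphate carrier, chr10:91116574-91124059, minus strand) had 1015 and 884 TPM and ranked 39th. Slc25a4 alone was 46.5% ± 0.64 of the family and Slc25a3 26.4% ± 0.50, and together they made 73.0% ± 0.13. The 10 highest members made 93.2% ± 0.07, so the other 40 shared the remainder.

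The other ADP/ATP carriers were far lower. Slc25a5 (the form of most growing cells, chrX:36795651-36798807, plus strand) had 134 and 116 TPM in replicates 1 and 2. Slc25a4 was thus 13.0-fold and 13.7-fold higher than Slc25a5 in the 2 animals, a log2 ratio of 3.74 ± 0.05. Of the 31-base words of Slc25a5-201, 67.1% occur in 13 other annotated genes, all of them pseudogenes, and its expected counts are not whole numbers. Those 13 genes together held 0.12 and 0.04 TPM. Slc25a4-201 shares no such word with another gene. Slc25a3, Slc25a36, Slc25a40 and Slc25a51 share 8.39% to 15% of theirs with 1 or 2 other genes each, which together held at most 0.35 TPM in a library. Slc25a31, the testis form in mice, had 6 counts in replicate 1 and 3 in replicate 2, that is 0.09 and 0.04 TPM.

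The calcium-regulated ATP-Mg/phosphate carriers shift the size of the adenine nucleotide pool rather than exchanging ATP for ADP. Slc25a23 had 23.8 and 23.2 TPM, Slc25a25 2.34 and 2.72 TPM, and Slc25a24 1.45 and 1.22 TPM. Slc25a23 was 16.4-fold and 19.0-fold higher than Slc25a24 and 10.2-fold and 8.54-fold higher than Slc25a25. Slc25a41, the member of this branch without the calcium-binding domain, had 0 counts in both libraries. The upper end of a 95% Poisson interval for that count was 0.10 TPM in each library.

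The phosphate carrier is made in 2 forms that differ by a single exon. Exon 3A is known as the heart and skeletal muscle exon and exon 3B as the widespread one. Transcript Slc25a3-206 carries the exon of 125 bases and Slc25a3-201 and Slc25a3-203 carry the one of 122 bases, and the proteins are 358 and 357 residues long. Both exons are shown because the split between the forms rests on them. Capitals mark bases that differ or have no partner when the pair is aligned, at 63.5% identity (mm10, minus strand).
Exon 3A, chr10:91122207-91122331: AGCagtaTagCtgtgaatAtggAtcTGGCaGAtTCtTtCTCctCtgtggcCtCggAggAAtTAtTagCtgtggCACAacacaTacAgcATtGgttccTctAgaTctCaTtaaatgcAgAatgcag
Exon 3B, chr10:91121922-91122043: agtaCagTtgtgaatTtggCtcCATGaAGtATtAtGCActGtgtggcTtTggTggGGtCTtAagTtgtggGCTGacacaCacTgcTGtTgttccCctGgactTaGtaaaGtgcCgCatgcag
In the FASTQ-derived table Slc25a3-206 had 814 TPM in replicate 1 and 733 in replicate 2, and it had 949 and 821 TPM by alignment. Slc25a3-201 had 90.6 and 87.2 TPM by FASTQ and 58.3 and 57.3 by alignment. Slc25a3-203 had 76.6 and 62.9 TPM by FASTQ and 2.48 and 2.34 by alignment. The exon 3A form therefore held 82.7% ± 0.26 of the gene by one table and 93.2% ± 0.42 by the other. It led in both animals and both tables, and the share of the other form differed between the tables by more than between the animals.

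**Figure D2:**
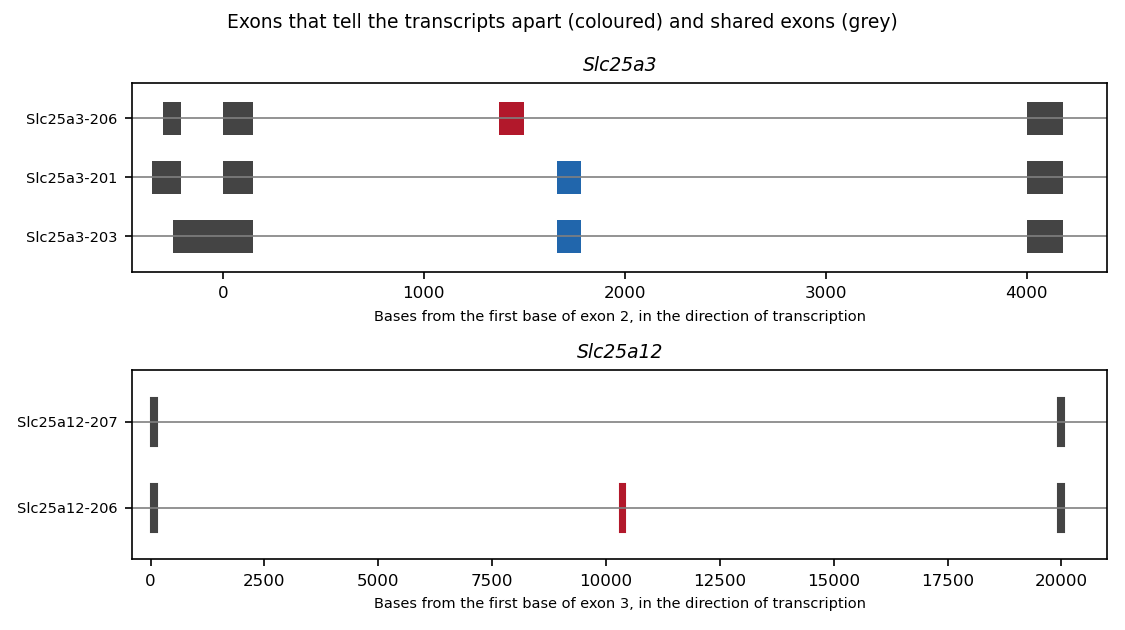
Exons of Slc25a3 (top) and Slc25a12 (bottom) drawn to scale as distance in bases along the gene, 1 row per annotated transcript; grey boxes are exons that overlap in all the transcripts drawn and coloured boxes are those that do not. Slc25a3-206 has the red exon of 125 bases where the other transcripts have the blue exon of 122, and Slc25a12-206 has an exon of 116 bases that Slc25a12-207 lacks.

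Carriers that shuttle fuels and reducing power were the next largest group, with 12.2% ± 0.07 of the family. Slc25a11, the oxoglutarate/malate carrier of the malate-aspartate shuttle, had 235 and 209.5 TPM. Its exons overlap those of Rnf167 on the opposite strand by 189 bases, and Rnf167 had 20.7 and 20.2 TPM. Slc25a20, which brings acylcarnitines in for fatty acid oxidation, had 75.4 and 65.5 TPM. Slc25a12 and Slc25a13, the aspartate/glutamate carriers also called aralar and citrin, had 92.8 and 85.6 TPM and 49.4 and 46.8 TPM. Slc25a10, the dicarboxylate carrier, had 5.03 and 4.84 TPM. Slc25a1, the citrate exporter that supplies fatty acid synthesis, had 1.69 and 2.26 TPM. Slc25a21, the oxoadipate carrier, had 0.22 and 0.09 TPM from 13 and 6 counts. In both hearts the gene totals of the malate-aspartate and carnitine shuttle carriers were above 40 TPM, and that of the citrate exporter below 3. The protein_coding transcript of Slc25a12, Slc25a12-206, was well below its gene total, at 9.54 and 8.33 TPM by alignment and 11.4 and 9.76 by FASTQ.

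Several enzymes that work with these shuttles were higher still. Mdh1 and Mdh2, the malate dehydrogenases, had 1091 and 955 TPM and 726 and 643 TPM. Got1 and Got2, the aspartate aminotransferases, had 396 and 382 TPM and 306 and 269 TPM. Cpt1b, the muscle enzyme that makes acylcarnitine, had 248 and 206 TPM, and Cpt1a, the liver type, 19.8 and 19.1 TPM. Acly, which splits exported citrate in the cytosol, had 10.6 and 8.26 TPM. Of 39 partner genes, these enzymes together with pores, other carriers and insertion factors, 37 passed 1 TPM in both hearts, and the list's median was 76.0 TPM in replicate 1 and 65.5 in replicate 2. The list was made of genes known for these steps.

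Slc25a12 was counted mostly on a transcript annotated as a target of nonsense-mediated decay, the pathway that removes messages with an early stop codon. By FASTQ, Slc25a12-207 stood at 54.9 and 50.4 TPM in replicates 1 and 2, and by alignment at 64.4 and 57.4 TPM. Slc25a12-206, annotated as protein_coding and encoding 677 residues, had 11.4 and 9.76 TPM by FASTQ and 9.54 and 8.33 by alignment. The decay transcript held 68.8% ± 1.73 and 68.2% ± 1.69 of the gene in the 2 tables. It lacks exon 4 of Slc25a12-206, whose 116 bases are not a multiple of 3. The exon is printed first, then the junction without it: the last 30 bases of exon 3 followed by the next exon up to a stop codon, in capitals, that ends 55 bases after the junction (mm10, chromosome 2, minus strand).
Exon absent from Slc25a12-207, chr2:71333605-71333720: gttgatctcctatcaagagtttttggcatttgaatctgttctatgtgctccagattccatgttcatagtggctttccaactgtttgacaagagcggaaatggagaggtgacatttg
Junction in Slc25a12-207: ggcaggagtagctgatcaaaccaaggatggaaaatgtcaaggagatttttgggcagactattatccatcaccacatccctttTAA
The pair of transcripts differs elsewhere too. The last exon of Slc25a12-206 is 4291 bases long and that of Slc25a12-207 664, and the first exon of Slc25a12-206 is 216 bases longer. Transcript tables hold no read counts per junction, so which of these differences the assignment rests on was not tested.

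In 3 of the 38 expressed members (7.89%) the transcript with the highest mean TPM was not annotated protein_coding in either table, against 5% of 10716 expressed protein-coding genes. Besides Slc25a12 these were Slc25a47 and Slc25a53. Slc25a47, known as a liver carrier in mice, had 2.80 and 2.88 TPM. Its leading transcript, Slc25a47-205, is annotated processed_transcript and had 1.92 and 1.70 TPM by FASTQ and 1.42 and 1.34 by alignment, while the coding Slc25a47-201 had 0.72 and 0.54 TPM by FASTQ and 0.65 and 0.55 by alignment. Slc25a47-205 begins at base 108836082 of chromosome 12 on the plus strand, 199 bases from the 5′ end of Slc25a29, which runs the other way. The coding Slc25a47-201 begins 15047 bases further on. Slc25a53, with 14 annotated transcripts, had 1.17 and 1.70 TPM. Its highest protein_coding transcript, Slc25a53-207, had 0.06 and 0.01 TPM by alignment, so little of that level was on coding transcripts.

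Over the family, protein_coding transcripts held 90.1% of TPM in the first animal and 93.1% in the second, and retained_intron transcripts 6.68% and 3.62%. Over all expressed nuclear protein-coding genes the same shares were 85.4% and 85.4%, and 5.93% and 5.87%. A single transcript, Slc25a4-202, made up 89.3% and 84.2% of the family's retained_intron TPM. It had 125 TPM in replicate 1 and 31.3 in replicate 2 by FASTQ, and 226 and 103 by alignment. Slc25a4-201, the coding transcript, had 1582 TPM in both animals by FASTQ and 1518 and 1487 by alignment. Slc25a4-202 reads past exon 3 into 428 bases of intron. The crossing is shown with the first 2 intron bases in capitals (mm10, minus strand).
Slc25a4-202, chr8:46208358-46208427: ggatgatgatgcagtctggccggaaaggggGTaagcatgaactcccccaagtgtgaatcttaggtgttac
Its log2 ratio, replicate 1 over replicate 2, was 0.95 after centring, just short of 2-fold, and 1.99 in the FASTQ-derived table without centring. Of the family's 10 retained_intron transcripts with a mean of 1 TPM or more, 1 was 2-fold or more higher in replicate 1, Slc25a36-205 with 3.72 and 0.66 TPM, against 9.06% of 1678 such transcripts of all genes. Another 1 of the 10 was 2-fold or more lower there, Slc25a3-204 with 0.83 and 1.79 TPM, against 8.52% of all. The family is near the background in both directions.

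**Figure D3:**
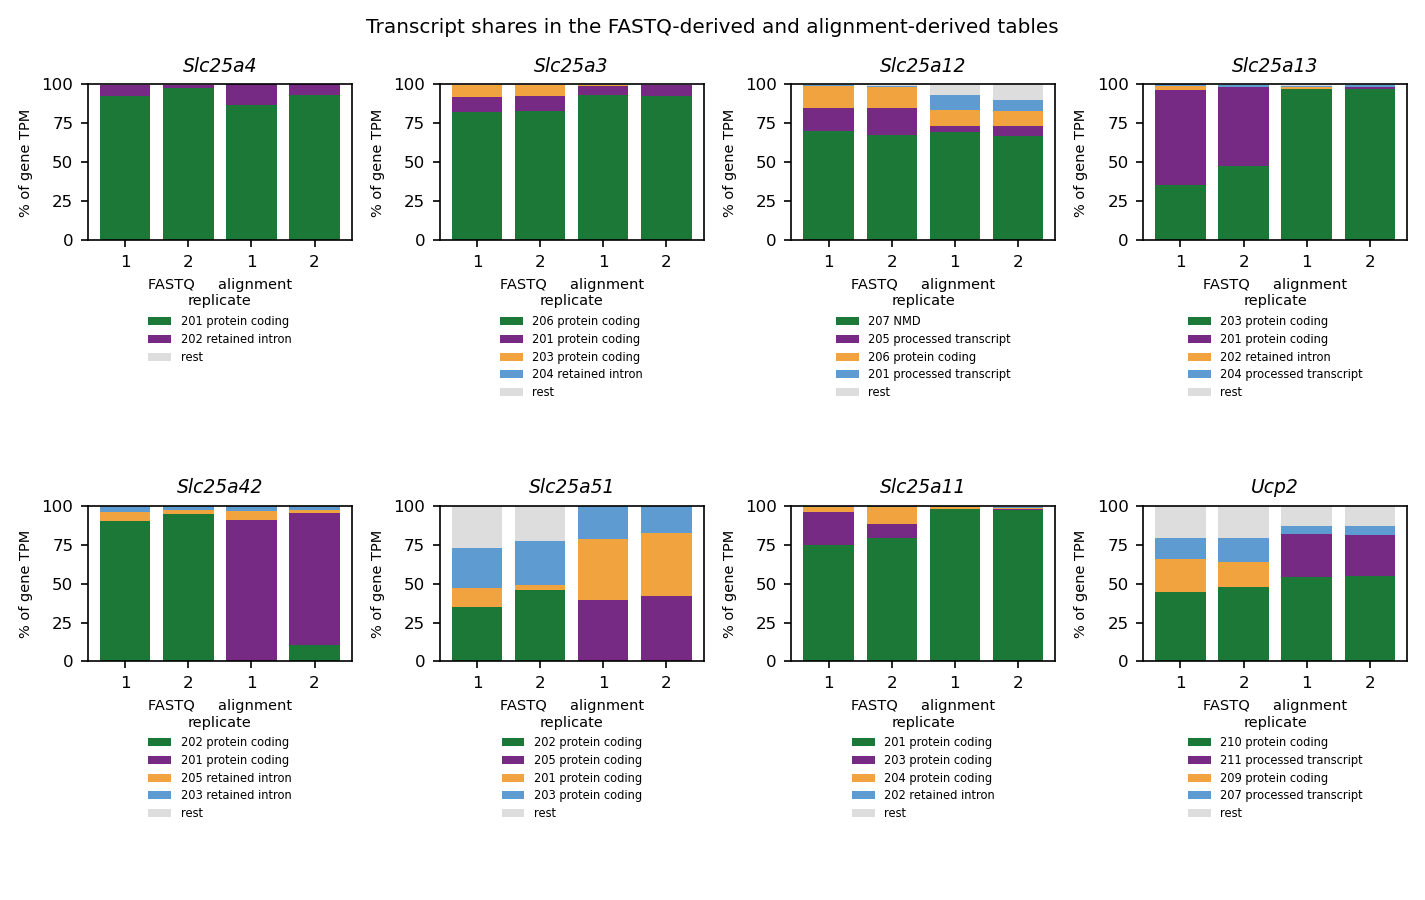
Percent of each gene's TPM on its leading transcripts (coloured, numbered as in the annotation; NMD, nonsense-mediated decay) for 8 members, with 2 bars from the FASTQ-derived table and 2 from the alignment-derived table, 1 per replicate. Slc25a12 and Slc25a3 keep the same leading transcript in both tables, while Slc25a13, Slc25a42 and Slc25a51 do not.

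Among the 36 expressed members with several transcripts, 31 (86.1%) had the same leading transcript in both tables, against 81.4% of 9855 expressed protein-coding genes with several transcripts. In Slc25a42, a coenzyme A carrier, Slc25a42-202 had 13.2 and 14.7 TPM by FASTQ and 0 and 1.72 by alignment. Slc25a42-201 had 0.01 and 0 TPM by FASTQ and 14.6 and 14.0 by alignment. In Slc25a13, Slc25a13-201 had 29 and 23.5 TPM by FASTQ and 0 and 0.72 by alignment, and Slc25a13-203 had 17.0 and 22.0 TPM by FASTQ and 48.1 and 45.3 by alignment. In both genes the pair of transcripts has the same coding sequence, so the tables differ there on untranslated parts and not on the protein. In Slc25a51, the NAD carrier, Slc25a51-202 led by FASTQ with 10.4 and 11.4 TPM, and Slc25a51-205 led by alignment with 13.9 and 12.2. Slc25a51-202 and Slc25a51-205 have annotated coding sequences of 298 and 195 codons. By alignment Slc25a51-201, which encodes 315 residues, was almost level with Slc25a51-205, at 13.87 and 12.02 TPM. Slc25a53 also changed its leading transcript.

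Summed to genes, the tables differed little. Among 41 members compared, 0 were 2-fold or more apart between the tables in both animals, against 5.21% of 12375 genes. At 1.5-fold the count was also 0, but no share over all genes was taken at that mark, so it describes the members only.

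The cofactor and nucleotide carriers were all present: 9 of 9 genes were expressed, between 3.94 and 35.4 TPM in either animal. Slc25a51 led with 35.4 and 29.3 TPM. Of the 2 coenzyme A carriers, Slc25a42 had 16.1 and 16.6 TPM and Slc25a16 8.59 and 8.32 TPM. Slc25a36 and Slc25a33, carriers of pyrimidine nucleotides, had 15.4 and 10.4 TPM and 10.6 and 8.22 TPM. The carriers of S-adenosylmethionine (Slc25a26), folate and flavin (Slc25a32) and peroxisomal cofactors (Slc25a17) lay between 3.94 and 7.02 TPM.

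The iron and glutathione carriers were all expressed, at 2.38% ± 0.06 of the family. Slc25a39, a glutathione carrier, had 74.8 and 64.1 TPM, at the level of Slc25a20, and its relative Slc25a40 had 2.31 and 2.78 TPM. Slc25a39 was 32.4-fold and 23.1-fold higher. Slc25a37 (mitoferrin 1, the form of red cell precursors) had 4.94 and 3.37 TPM and Slc25a28 (mitoferrin 2, the form of most tissues) 9.97 and 8.98 TPM. Slc25a37 was the lower in both animals, with a log2 ratio over Slc25a28 of -1.21 ± 0.28. Slc25a37 was higher in replicate 1, with a centred log2 ratio of 0.36. Slc25a36, Slc25a30 and Slc25a27 had larger ratios, at 0.39, 0.43 and 0.48. Red cell markers were also higher in replicate 1, with a median centred ratio of 0.43. Their median was at 526 TPM in replicate 1 and 343 TPM in replicate 2. The list summed to 3479 and 2255 TPM, and passed 1 TPM in 5 of 6 cases, with Slc4a1 at 1.00 and 0.07 TPM. The part of red cells in the Slc25a37 level was not tested. Of the words of Slc25a37-201, 9.07% occur in 9 other genes, which together held 54.4 and 44.8 TPM, and its counts are not whole numbers.

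Amino acid carriers made up 1.25% ± 0.03 of the family. Slc25a22, a glutamate carrier, had 25 and 21 TPM, and the other glutamate carrier, Slc25a18, had 0.05 and 0.15 TPM from 3 and 9 counts. Their ratio was 500.2 in replicate 1 (95% interval 174 to 2463) and 140.1 in replicate 2 (75.5 to 314). The intervals are exact Poisson intervals of the Slc25a18 count and cover counting error only. Slc25a18 also overlaps Atp6v1e1 on the opposite strand by 32 bases. Slc25a38, which brings glycine in for heme synthesis, had 8.53 and 6.51 TPM. Slc25a44 (branched-chain amino acids), Slc25a29 (basic amino acids) and Slc25a15 (ornithine) lay between 3.78 and 5.31 TPM in both animals. Slc25a15 was the lowest of the 3 in each animal, and the order of Slc25a44 and Slc25a29 differed between the animals. Slc25a2, the other ornithine carrier, had 3 counts in each library, or 0.07 TPM.

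The uncoupling proteins, named after Ucp1, which lets protons leak back in brown fat to make heat, split sharply. Ucp3, the skeletal muscle form (chr7:100472990-100486432, plus strand), had 15.2 and 13.8 TPM, and its neighbour Ucp2 (chr7:100493337-100502020, plus strand) 60.6 and 55.7 TPM. The log2 ratio of Ucp3 over Ucp2 was -1.99 in replicate 1 and -2.01 in replicate 2, which makes Ucp2 4.01-fold the higher. In Ucp2 the noncoding Ucp2-211 held 0 TPM in both animals by FASTQ and 16.7 and 14.6 by alignment. Among the other relatives, Slc25a30 had 4.32 and 2.79 TPM, Slc25a27 1.26 and 0.76, and Slc25a14 0.73 and 1.00. Together with Ucp1, Slc25a27 and Slc25a14 are the 3 members that reached 1 TPM in 1 animal but not in the other.

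Ucp1 (chr8:83290352-83298452, plus strand) stood at 0.74 TPM in replicate 1 and 1.44 in replicate 2, from 38 and 75 counts. Replicate 1 was the lower, and the deposited credibility intervals, 0.52 to 0.98 and 1.12 to 1.75 TPM, do not overlap. Their level is not given, and they are of levels before centring. In Slc25a4, whose centred log2 ratio was -0.05, they do not overlap either. The centred log2 ratio of Ucp1, replicate 1 over replicate 2, was -1.06. This was the single member of 40 (2.5%) at 2-fold or more, against 1.42% of 11871 genes, so the share over the members is no more than 1 gene above the background. Without centring the ratio was -0.87 and with 1 TPM in place of 0.1 added it was -0.65, so the 2-fold mark was not reached under either. Among brown fat markers, Zic1 had no count, Elovl3 had 0 and 0.02 TPM and Dio2 0.16 and 0.11, and Cidea and Cox7a1, which are also known from heart muscle, had 15 and 12.9 TPM and 1220 and 1094 TPM. The list passed 1 TPM in 2 of 5 cases and summed to 1235 and 1107 TPM. The general fat markers passed it in 2 of 5 and summed to 10.8 and 7.55 TPM. Cfd, at 7.56 and 4.93 TPM, made most of that sum. Plin1 (1.63 and 1.18) and Retn (0.69 and 0.38) were also higher in replicate 1. Adipoq (0.91 and 1.03) and Lep (0.02 and 0.03) were higher in replicate 2. The part of fat in the Ucp1 level was not tested.

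Of the other 9 members, 5 were expressed. Slc25a34, a carrier without a settled substrate, had 45.4 and 40.8 TPM, within the family's top 10. Its relative Slc25a35 had 1.25 and 1.59 TPM, and 1151 bases of its exons lie opposite exons of Rangrf, which had 33.5 and 32.6 TPM; the kit keeps strand, but nothing read for this work says whether the counting used it. Slc25a46, which acts in the outer membrane in mitochondrial fission and fusion, had 17.7 and 14.4 TPM. Slc25a45 was below 1 TPM in both animals, with 0.92 and 0.75.

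In all, 9 members were below 1 TPM in both hearts, and 8 of them below 0.3 TPM. Slc25a41 and Slc25a54 had no count in either library. Slc25a43 had 1 count in replicate 1 and 0 in replicate 2, and Slc25a48 had 1 and 3. With Slc25a31, Slc25a18, Slc25a2 and Slc25a21 these make the 8. Levels of this size, from 13 counts or fewer per library, cannot be ordered.

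Pairs of related carriers were mostly lopsided. Most share a kind of substrate, but Slc25a20 and Slc25a29 carry different ones, and Slc25a34 and Slc25a35 have none that is settled. A pair was called one-sided where the log2 ratio of TPM + 0.01 was at least 1 in size and of equal sign in the 2 animals, and its mean over 3 times its SD. Of 18 pairs, 14 were one-sided, and the same 14 in the same direction by the FASTQ-derived table, which comes from the same libraries. In 3 of them the second member had 3 counts or fewer in a library (Slc25a31, Slc25a18 and Slc25a2). The exceptions were Slc25a12 and Slc25a13 (1.85-fold), Slc25a42 and Slc25a16 (1.93-fold), Slc25a36 and Slc25a33 (1.35-fold), and Slc25a30 and Slc25a14 (5.92-fold and 2.79-fold in the 2 animals). The last was one-sided in the FASTQ-derived table. Slc25a11 was 46.8-fold and 43.3-fold higher than Slc25a10, and Slc25a34 36.3-fold and 25.6-fold higher than Slc25a35. Some pairs share a member, as do those among Ucp1, Ucp2 and Ucp3. No such count is given for pairs of unrelated genes, so the 14 of 18 describe these pairs only.

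**Figure D4:**
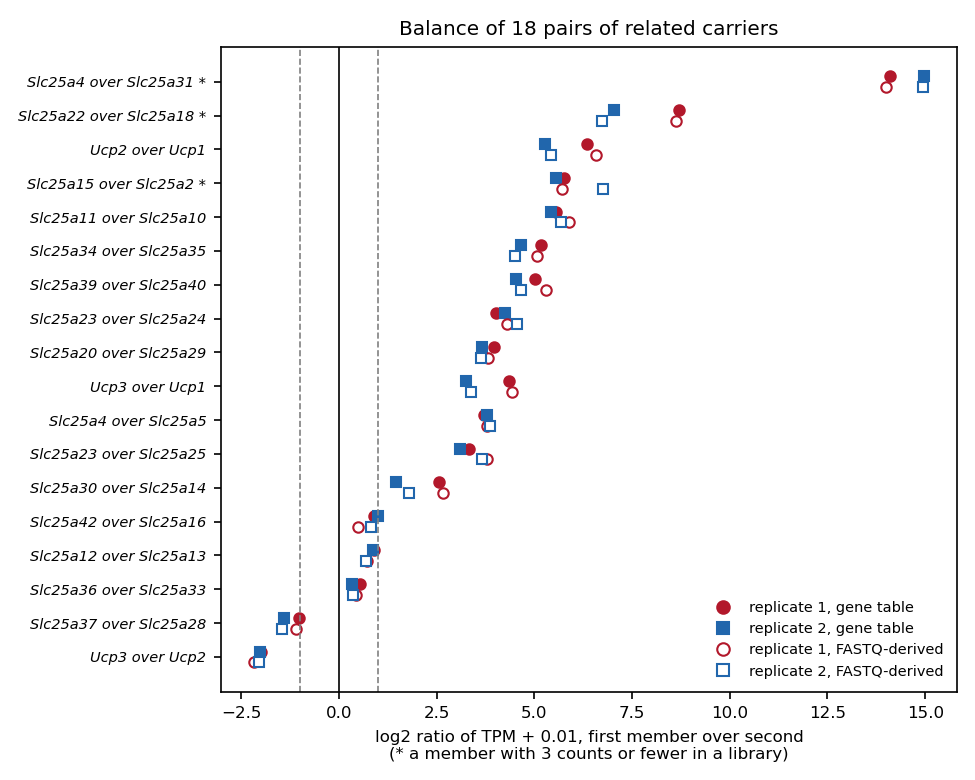
log2 ratio of TPM + 0.01, first member over second, for 18 pairs of related carriers; circles are replicate 1 and squares replicate 2, filled for the gene table and open for the FASTQ-derived table, dashed lines mark 2-fold. By gene totals, Slc25a12 over Slc25a13 and Slc25a36 over Slc25a33 lie within 2-fold in both animals and tables, and Ucp3 over Ucp2 lies near -2.

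The 2 hearts were close. Before centring, 31 of 40 members compared were higher in replicate 1, with a median log2 ratio of 0.16, and the median of all genes compared was itself 0.18 higher there. After that shift was taken off, 16 of 40 were higher in replicate 1 and the median was -0.02. Within 1.2-fold lay 72.5% of the members and 73.6% of all genes compared. The SD of the centred ratio was 0.30 for the members and 0.40 for all genes. Slc25a4 stood at -0.05, Slc25a3 at 0.02 and Slc25a11 at -0.02. A fold mark of 1.5 added Slc25a53, at -0.69, to Ucp1, and no share over all genes was taken at that mark. There was 1 library per animal, so these are descriptions: with 2 animals the smallest p that an exact sign-flip test allows is 0.5.

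**Figure D5:**
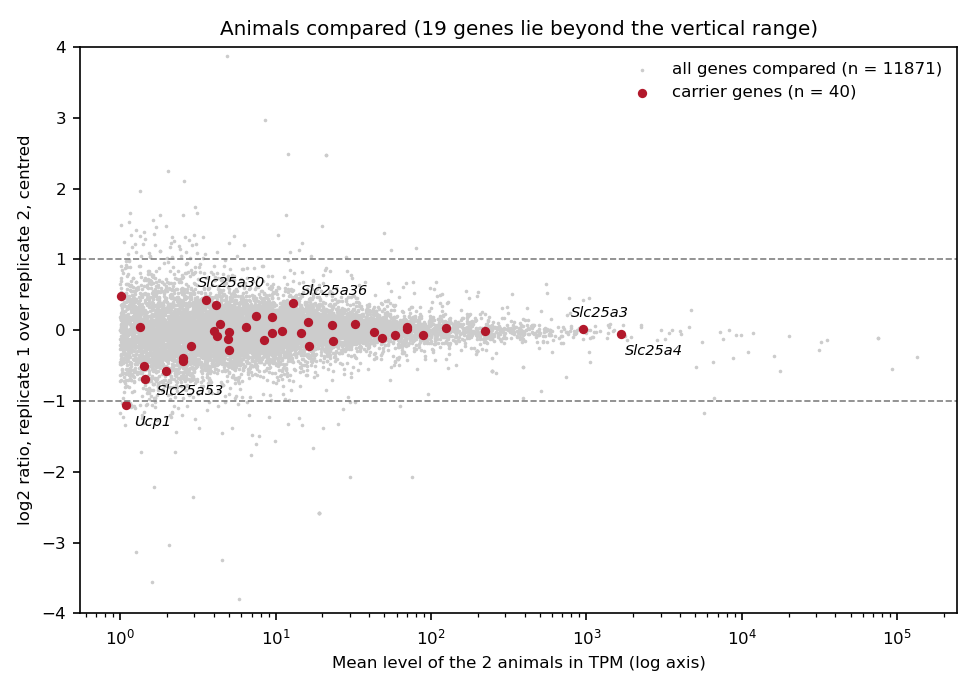
Centred log2 ratio of TPM + 0.1, replicate 1 over replicate 2, against mean TPM on a log axis for all 11871 genes compared (grey) and the 40 carrier genes among them (red); dashed lines mark 2-fold. The abundant carriers lie near 0 and Ucp1, the lowest, lies at -1.06.

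Genes that insert carriers and their outer membrane counterparts were present throughout. Vdac1, the main outer membrane pore, had 405 and 357 TPM. Mpc1 and Mpc2, which form the pyruvate carrier outside this family, had 341 and 298 TPM and 208 and 178 TPM. Timm22, the core of the insertion complex for carriers, had 12.1 and 12.9 TPM, and Tomm70a, their receptor, 14.2 and 11.5 TPM. Mtch1 and Mtch2, relatives with other names in the outer membrane, had 76.0 and 63.2 TPM and 66.8 and 54.7 TPM. Of the 37 partner genes compared, 0 were 2-fold apart between the animals, against 1.42% of 11871 genes, so the count is near the background. Sfxn5, at a centred log2 ratio of -0.96, was just short of the mark. The median centred ratio of the partner genes was 0.00.

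Promoter sequences (RefSeq, GRCm38.p6; 250 bases before to 50 after the start) were at hand for 39 members. The NRF1 motif CGCANGCG was in 2 of them on either strand, 5.13%, against 9.22% of 27018 genes. The ERR motif TCAAGGTCA was in 0 of 39, against 0.466%, and its looser form NNAAGGTCA, which contains it, in 1, against 5.35%. The NRF1 matches were in Slc25a3 and Slc25a31 and the looser ERR match in Slc25a34. These letters in so short a window are a description of the window only.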

How the data were processed

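Total RNA of 2 hearts was made into libraries with a directional RNA kit from 300 ng with ERCC spike-ins, per the labels. Assembly mm10 and annotation GENCODE M21 are named in the deposited description files; the aligner and counting tool are not given in the sources. Per the file headers, the authors' gene table and first transcript table hold expected counts, TPM, posterior mean TPM, credibility interval bounds (treated as a signal, level not given) and, per transcript, a percent of the gene. Both come from alignments to the transcriptome; a second transcript table, with estimated counts and TPM, comes straight from the FASTQ reads, per the deposited description files. TPM moves with the rest of the library, and mm10 is C57BL/6J while the hybrids also carry CAST/EiJ alleles, which may be counted less completely.

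Means and SDs are over 2 animals. With 1 group there was no test. Ratios of replicate 1 over replicate 2 used TPM + 0.1, with the median ratio over genes of at least 1 TPM by mean and 20 counts taken off. Counts of members were read against all genes. The comparison step was run on simulated counts that held counting noise alone, so that run does not cover the spread between these libraries. Over 42 members with 20 or more counts the libraries differed by a chi-square of 11.1 per degree of freedom, more than counting noise gives, which does not show whether they are 2 animals. Named were the 10 highest members, all pairs of related members, Ucp1 to Ucp3, members 2-fold apart and members whose leading transcript differed between tables, and the rest by role; values of 1 member are not reported here, though the counts over the family include it. The members and lists were chosen with earlier results of these data known. Coding sequences were translated from the GENCODE M21 transcripts, since the protein table meant for this step was not used here, and no residues are printed. Shared words are runs of 31 bases in the highest coding transcript of each member. In 15 members some exon bases overlap an exon of another gene, in 13 of them on the opposite strand. Tools were Python 3.11.15, pandas 2.3.3, NumPy 2.4.6, SciPy 1.17.1, Biopython 1.88 and matplotlib 3.10.9. Alternatives tried were other thresholds, tables, TPM estimates, denominators, centring, pseudocounts and each animal left out.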

Additional observations from a re-analysis of the deposited data

How the results depend on the processing

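Of 48 alternative settings, 38 gave a value within the spread between animals or within 1.5 times the count, 10 moved it and 0 reversed a called value. At 5 TPM, 23 members were counted as expressed in place of 38. The family's share of TPM was 1.01% with nuclear protein-coding genes as the denominator and 0.484% by expected counts, against 0.359%. The median member was at 5.08 TPM by posterior mean and 9.48 TPM over expressed members alone, against 4.89. Slc25a4 was 49.4% of the family's expected counts, against 46.5% of its TPM. The count of members 2-fold apart between the animals was 0 without centring, 0 with 1 TPM added and 2 at 1.5-fold, against 1. The median ratio of the members was 0.16 without centring, the other sign from -0.02. Protein_coding transcripts held 94.5% of the family's TPM by the FASTQ-derived table, against 91.6%. The causes were not tested.

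Leaving out replicate 1 or 2 gave 40 or 39 expressed members, 0.339% or 0.379% of TPM, and 15 one-sided pairs each. No paired analysis was possible because the series has 1 group. Depth limits the members below 0.3 TPM, which rest on 13 counts or fewer per library, and 2 animals limit every SD given.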
